A study of Homo sapiens with 6 samples.

Results

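DNA replication and G1/S genes were examined in Huh7 cells overexpressing transketolase (TKT). The list held 46 genes, all present among the 22077 gene symbols of the count table, and 45 of them had enough counts to be tested. Genes were taken by symbol for their role, in 3 groups: 11 origin licensing genes, 20 replication fork genes and 15 cyclin, CDK and E2F regulators. The list was chosen by these roles with the fold changes and p-values of this same comparison already known from earlier results, so the fold changes and calls of its genes are given as a description, and nothing about the list as a whole was tested.

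RNA was sequenced from 6 cultures, 3 labelled over-expression and 3 labelled control with the genotype entry wt. Huh7 is an established line of human liver cancer cells. The sample labels spell it Hu7 and the study's results name Huh7, whereas its methods name HCCLM3, another line of the same cancer, for the sequencing. Overexpression was made by transfecting a GFP- and puromycin-marked plasmid that carries TKT, followed by selection, and the control titles begin with VC. No drug treatment is named for these cultures. The promoter of the plasmid, the time after transfection and whether the selected cells were a pool or a clone are not given in the sources used here. TKT encodes an enzyme of the non-oxidative branch of the pentose phosphate pathway, which yields the ribose phosphate used for nucleotides.

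Replication origins are licensed in G1, when the origin recognition complex, CDC6 and CDT1 load the ring-shaped MCM helicase onto DNA. In S phase CDC45 and the GINS complex activate this helicase, and polymerases, the PCNA clamp and its loader copy the DNA. Entry into S phase is driven by cyclin-CDK activity, which releases E2F factors from the retinoblastoma protein and its relatives. E2F factors, paired with a partner such as TFDP1, are known to bind sites near the starts of many of these genes, and the set is active in cycling cells, those of liver cancer included.

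Promoter sequences are shown first because E2F sites are the feature that these genes are known to share. RefSeq promoter windows (build GRCh38.p14, 250 bases before and 50 after the start) matched 40 of the 46 genes. In 6 of these (GINS2, GINS3, RFC5, UHRF1, CDK4 and RB1) the RefSeq start lay more than 1000 bases inside the outer start of the gene in GENCODE 29, by 172724 bases in RB1 and 97391 in GINS3, so their windows need not be the main promoter. The words TTTCCCGC, TTTCGCGC, TTTGCCGC and TTTGGCGC were searched on both strands as E2F words, with overlapping words each counted. Each sequence shown covers 200 bases before and 10 after the RefSeq start, 5′ to 3′ on the gene's strand, with E2F words in capitals. MCM6 and MCM7 stand for the helicase, PCNA for the fork, and E2F1 and CDC25A for the regulators that were lower in the test described below. CDKN2B is the only regulator that was higher in that test. Their positions are chr2:135876434-135876643 for MCM6, chr7:100101388-100101597 for MCM7, chr20:5126613-5126822 for PCNA, chr20:33686376-33686585 for E2F1, chr3:48188408-48188617 for CDC25A and chr9:22009296-22009505 for CDKN2B, all on the minus strand.
MCM6: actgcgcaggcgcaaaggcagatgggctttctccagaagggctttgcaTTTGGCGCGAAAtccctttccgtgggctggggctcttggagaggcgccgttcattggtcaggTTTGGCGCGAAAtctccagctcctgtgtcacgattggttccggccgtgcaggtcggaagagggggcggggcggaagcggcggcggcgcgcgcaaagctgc
MCM7: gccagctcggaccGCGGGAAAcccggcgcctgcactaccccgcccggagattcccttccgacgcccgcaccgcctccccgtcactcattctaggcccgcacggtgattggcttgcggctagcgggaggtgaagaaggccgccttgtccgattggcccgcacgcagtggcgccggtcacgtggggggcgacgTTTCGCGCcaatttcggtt
PCNA: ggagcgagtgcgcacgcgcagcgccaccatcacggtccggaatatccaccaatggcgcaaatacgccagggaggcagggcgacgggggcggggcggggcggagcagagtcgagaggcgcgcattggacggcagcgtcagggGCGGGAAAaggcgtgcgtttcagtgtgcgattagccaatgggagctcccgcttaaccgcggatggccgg
E2F1: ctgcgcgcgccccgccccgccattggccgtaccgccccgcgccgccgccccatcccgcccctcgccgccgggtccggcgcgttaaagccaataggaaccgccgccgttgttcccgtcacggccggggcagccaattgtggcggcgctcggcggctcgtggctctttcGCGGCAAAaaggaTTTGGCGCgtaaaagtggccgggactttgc
CDC25A: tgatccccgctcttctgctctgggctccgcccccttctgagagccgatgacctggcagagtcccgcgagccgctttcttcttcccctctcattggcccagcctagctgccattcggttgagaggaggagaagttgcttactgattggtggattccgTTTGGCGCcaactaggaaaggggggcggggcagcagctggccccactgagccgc
CDKN2B: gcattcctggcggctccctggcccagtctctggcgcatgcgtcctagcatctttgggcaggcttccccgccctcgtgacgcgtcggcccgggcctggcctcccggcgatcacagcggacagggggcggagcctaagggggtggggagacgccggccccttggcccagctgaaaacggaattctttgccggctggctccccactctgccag

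MCM6 held 4 overlapping matches in 2 capital runs, MCM7 and E2F1 held 2 matches each, and PCNA and CDC25A held 1 each. The CDKN2B window held none of these words. Over the 40 windows, 22 held an E2F word, a share of 55.0% (95% Wilson interval 39.8% to 69.3%), against 3.33% of all 27305 promoter windows and 5.22% of the 10864 windows of tested genes. Over the 34 windows without those 6, the share was 55.9%, a count chosen after seeing the data. By role, the word was found in 6 of 9 licensing genes, 10 of 18 fork genes and 6 of 13 regulators. The CCAAT box, the core of NF-Y sites, was found in 47.5% of the windows of the list (95% Wilson interval 32.9% to 62.5%), 35.7% of all windows and 36.9% of those of tested genes. The E-box CACGTG, a core of MYC sites, was found in 17.5% (8.75% to 31.9%), 7.43% and 9.99%, also on both strands. For both of these words the share among tested genes lay inside the interval of the list. The share over all windows lay inside it for the CCAAT box but below it for the E-box. A match is a description of the letters and not a bound site.

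**Figure D1:**
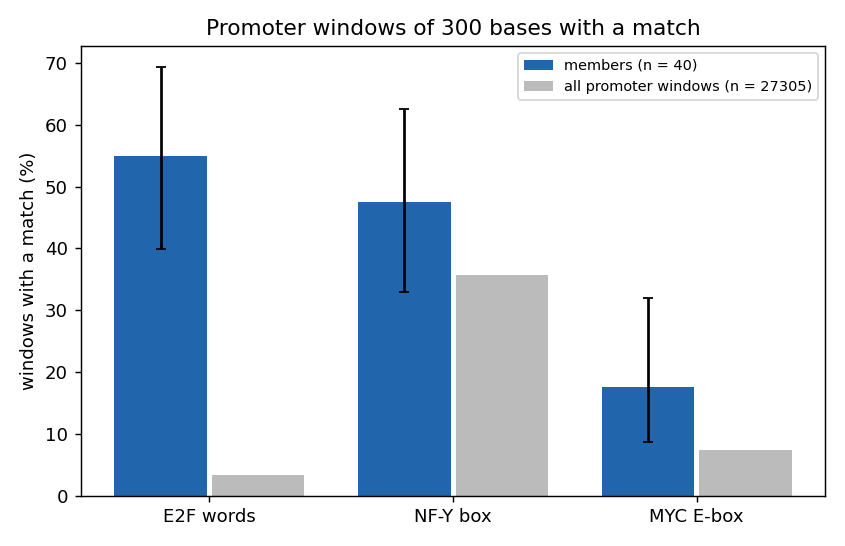
Share of promoter windows (%) that hold an E2F word, a CCAAT (NF-Y) box or a CACGTG (MYC) E-box, for the 40 windows of the list (blue, with 95% Wilson intervals) and all 27305 windows (grey). The E2F bars stand at 55.0% and 3.33%, the widest gap of the 3.

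TKT itself separated the groups as labelled. Its normalised level was 9402, 9549 and 9392 CPM (counts scaled for library size) in the overexpressing cultures and 497, 469 and 515 CPM in the controls, a log2 fold change of 4.26 (standard error, SE, 0.04; adjusted p = 1.15e-25). Library totals lay between 30148788 and 37096156 counts, and replicates of a group differed by more than counting noise (chi-square per degree of freedom between 7.24 and 9.99), so no library was a copy of another. Liver cell transcripts were abundant, with up to 296682 counts for ALB and 317156 for AFP, although APOB had at most 6. Of the 10 liver markers 9 were tested, and 3 passed the test at an adjusted p under 0.05 in edgeR. FGB (log2 fold change 0.50) and FOXA2 (0.35) were higher, and HNF4A (-0.15) was lower. Among markers of other cell types, CD3E and VWF had at most 2 counts, while PECAM1, EPCAM, VIM and LYZ were detected, and of these only LYZ passed the test (log2 fold change -0.35). The part of these marker differences in the results was not tested. The labels number the cultures as replicate samples without saying how they were grown, so p-values measure the spread between these cultures, which may be technical.

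As a group, the replication and G1/S genes were slightly lower in TKT-overexpressing cells. Of the 45 tested genes, 35 had a log2 fold change below 0, and the median was -0.09 against 0.00082 over all 14162 tested genes, so that the median gene of the list decreased by 6.15%. In each culture the median deviation of these genes from the control mean was -0.11, -0.08 and -0.09 (log2) with TKT and 0.0074, 0.0013 and 0.0026 in the controls. The 46 genes took 0.550%, 0.552% and 0.556% of all counts in the overexpressing cultures and 0.600%, 0.596% and 0.594% in the controls. The overexpressing cultures lay below every control culture on both measures, which use the same counts. The first is taken from the control mean, and the genes were chosen with this comparison known, so this is a description. In bulk RNA a smaller share of cells in S phase and less of these RNAs per cell cannot be told apart. In other assays, EdU staining and colony formation, the study reported more proliferation of TKT-overexpressing Huh7 cells. How those assays relate to these RNA levels was not tested.

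At an adjusted p under 0.05 in edgeR's quasi-likelihood test, with Benjamini-Hochberg adjustment over all tested genes, 16 of the 45 genes were called, where 10.6% of all tested genes were. Of these, 15 were lower, against 4.94% of all tested genes, and 1 was higher, against 5.69%. None passed the study's own thresholds, which add an absolute log2 fold change over 1 and which 0.727% of all tested genes passed in edgeR. None did with DESeq2 either. None did at an unadjusted p under 0.05 in edgeR, since every gene of the list tested there had an absolute log2 fold change below 1. With no overlap between the 3 values of each group, 19 of the 45 genes were lower (13.9% of all tested genes) and 3 were higher (14.1%). Since the list was chosen with this comparison known, nothing is read from these counts. The number of called genes depended on the cultures used: it was 7 without TKT overexpression replicate 1, 10 without TKT overexpression replicate 3 and 7 without control replicate 1. Over all tested genes the number called also dropped, from 1505 to 791, 1036 and 881 in these 3 settings. Whether the list lost a larger share of its calls than all tested genes was not tested. Every called gene kept its direction in all 15 alternative settings, and MCM5, CDK2, TFDP1, CDKN2B and CDKN2C also kept an adjusted p under 0.05 in every one of them.

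**Figure D2:**
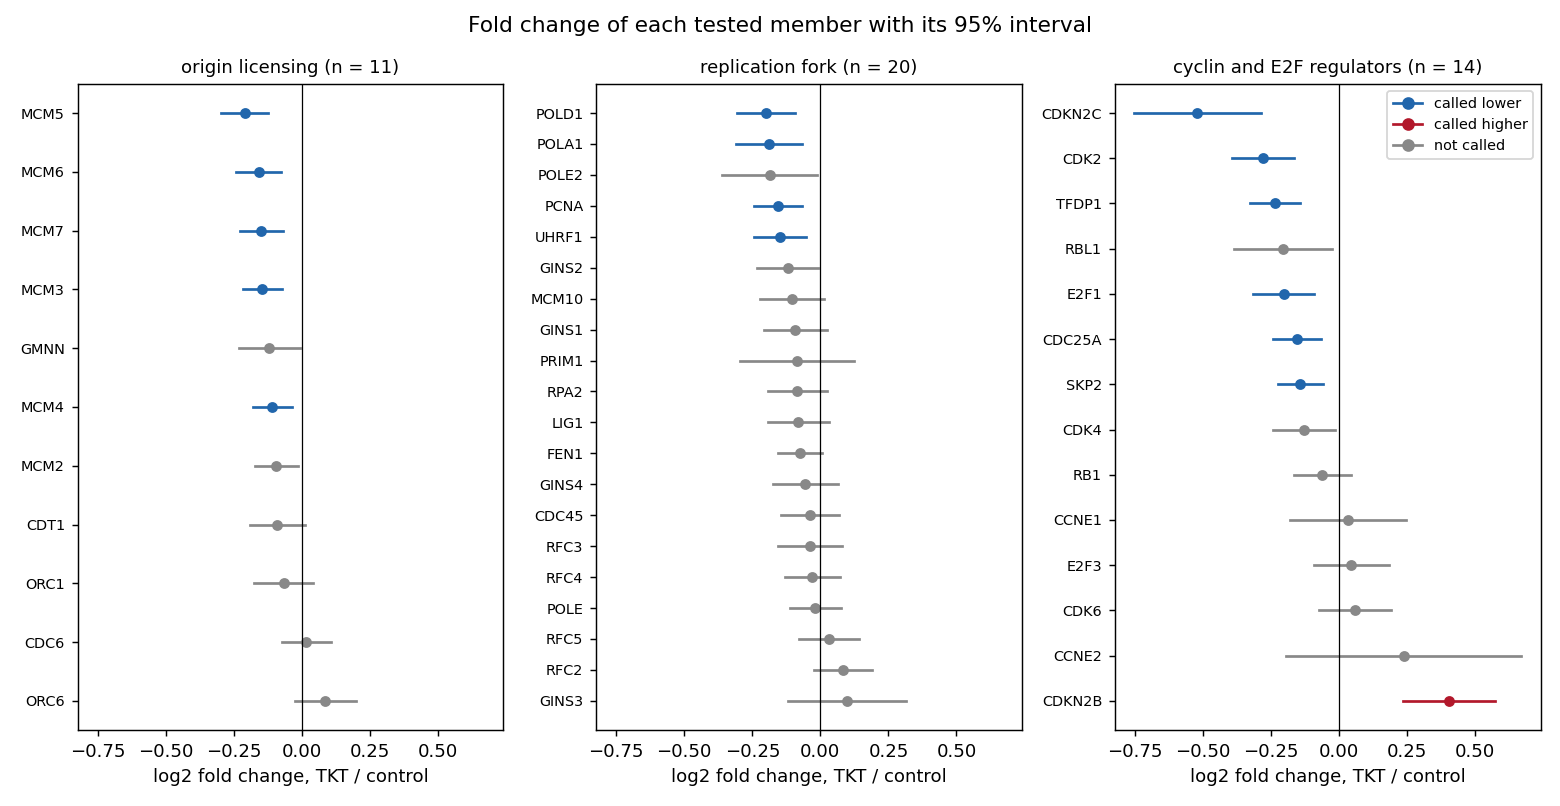
Log2 fold change (TKT over control, x axis) with its 95% interval for each of the 45 tested genes, in 3 panels by role. Blue genes were called lower, the red gene higher and grey genes were not called; most points lie left of 0 and all within 1 of it.

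Among the 11 origin licensing genes, 9 had a log2 fold change below 0 and 5 were called lower, against 4.94% of all tested genes. All 5 were subunits of the MCM helicase. MCM4 fell by 7.19% and MCM5 fell by 13.5%, the ends of their range. MCM5 (chr22:35400063-35425430, GRCh38) had 281, 272 and 259 CPM in the overexpressing cultures and 324, 296 and 319 CPM in the controls, a log2 fold change of -0.21 (SE 0.04, adjusted p = 0.00197). Its highest value with TKT lay below its lowest control value, and its change was the largest of the 11. MCM3, another subunit of the ring, had 486, 486 and 477 CPM with TKT and 545, 533 and 524 CPM in the controls, a log2 fold change of -0.14 (SE 0.03, adjusted p = 0.00826). MCM6 had 167, 169 and 166 CPM against 187, 192 and 181 CPM (log2 fold change -0.16, SE 0.04, adjusted p = 0.0127). In both genes the overexpressing cultures lay closer to each other than the controls did, and the groups did not overlap.

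MCM7, the most abundant gene of the whole list, had 836, 875 and 799 CPM with TKT and 930.1, 906 and 945 CPM in the controls (log2 fold change -0.15, SE 0.04, adjusted p = 0.0131). MCM4 had 402, 395 and 407 CPM against 435, 431 and 431 CPM, the smallest called change of the list at -0.11 (SE 0.03, adjusted p = 0.0439). The groups did not overlap in either gene. The call of MCM4 was the weaker one, since its adjusted p was under 0.05 in 5 of the 15 alternatives, against 11 for MCM7, 12 for MCM6 and 13 for MCM3. Up to 8.94% of the MCM7 exon sequence overlaps AP4M1 on the opposite strand, a gene with at most 540 counts.

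The sixth subunit, MCM2, did not pass the test: its log2 fold change was -0.09 (95% interval -0.17 to -0.02, adjusted p = 0.126), although its values of 251, 251 and 257 CPM with TKT lay below the 277, 260.0 and 272 CPM of the controls. The genes that load the ring were not called. ORC1, the ATPase subunit of the origin recognition complex, had a log2 fold change of -0.07, the loading factors CDC6 and CDT1 had 0.02 and -0.09, and GMNN, which encodes the CDT1 inhibitor geminin, had -0.12. ORC6, another subunit of the origin recognition complex, had a log2 fold change of 0.09 with no overlap between the groups (adjusted p = 0.371). Over the 6 uncalled licensing genes, the 95% intervals reached from -0.23 to 0.20. The median of the 11 genes was -0.11. Without control replicate 1 only 1 licensing gene was called, and without TKT overexpression replicate 1 or replicate 3 the number was 2 or 3. The call of MCM3 was lost without control replicate 1, that of MCM6 without control or TKT overexpression replicate 1, that of MCM7 also without TKT overexpression replicate 3, and that of MCM4 without any culture other than control replicate 2. Over all alternatives the highest adjusted p of these genes was 0.0691, 0.0733, 0.0974 and 0.167.

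At the replication fork, 17 of 20 genes had a log2 fold change below 0 and 4 were called lower, against 4.94% of all tested genes. These 4 were the catalytic subunits of the polymerases alpha and delta, the sliding clamp and UHRF1. POLD1, the catalytic subunit of polymerase delta, had 81.6, 76.0 and 80.1 CPM in the overexpressing cultures and 87.6, 93.8 and 91.7 CPM in the controls, the largest change of this group at -0.20 (SE 0.05, adjusted p = 0.0141). POLA1, which starts each new strand together with primase, had 40.0, 39.8 and 41.4 CPM against 45.2, 48.8 and 44.2 CPM (log2 fold change -0.19, SE 0.06, adjusted p = 0.0407). Neither gene showed overlap between the groups, but the adjusted p of POLA1 was under 0.05 in only 3 of the 15 alternatives. AC020909.1, annotated as protein coding on the same strand, overlaps 8.64% of the POLD1 exon sequence. PCNA (chr20:5114953-5126626, GRCh38), the clamp that holds polymerases on DNA and a common proliferation marker, had 149, 154 and 144 CPM with TKT and 168, 168 and 161 CPM in the controls, a log2 fold change of -0.15 (SE 0.04, adjusted p = 0.0216). UHRF1, which binds hemimethylated DNA behind the fork and recruits the maintenance methyltransferase, had 98.6, 97.1 and 98.6 CPM against 109, 106 and 111 CPM (log2 fold change -0.15, SE 0.05, adjusted p = 0.0405). These 2 genes did not overlap between groups either, and the adjusted p was under 0.05 in 11 alternatives for PCNA and POLD1 and in 6 for UHRF1.

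The other 16 fork genes were not called, and their 95% intervals reached from -0.36 to 0.32. FEN1, the flap endonuclease of the lagging strand and after PCNA the most abundant fork gene, had 219, 224.3 and 218 CPM with TKT and 242, 223.5 and 231 CPM in the controls (log2 fold change -0.07, adjusted p = 0.264), so its groups overlapped. The helicase cofactors were not called and had log2 fold changes of -0.04 for CDC45, -0.10 for MCM10, and -0.09, -0.12, 0.10 and -0.05 for GINS1, GINS2, GINS3 and GINS4. The clamp loader subunits RFC2, RFC3, RFC4 and RFC5 had log2 fold changes of 0.08, -0.04, -0.03 and 0.03. POLE, the leading-strand polymerase, had a log2 fold change of -0.02 and its subunit POLE2 one of -0.19. The primase PRIM1, the ligase LIG1 and the single-strand binding subunit RPA2 had log2 fold changes of -0.09, -0.08 and -0.08. Among these 16, GINS2 and POLE2 were lower and RFC2 higher without overlap between the groups. The median of the 20 genes was -0.08. Without any 1 of the 3 overexpressing cultures, and without control replicate 1, only 1 fork gene was called. The call of POLD1 was lost without TKT overexpression replicate 2, that of PCNA without TKT overexpression replicate 1 or 3 or control replicate 1, that of POLA1 without any culture other than control replicate 3, and that of UHRF1 without any other than control replicate 2. Over all alternatives the highest adjusted p of these genes was 0.0790, 0.0987, 0.226 and 0.138. Processed pseudogenes of PCNA, FEN1, RFC3, RFC5 and RPA2 are annotated, as they are for CDK4 and E2F3. How reads shared with them were counted is not given in the sources used here.

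**Figure D3:**
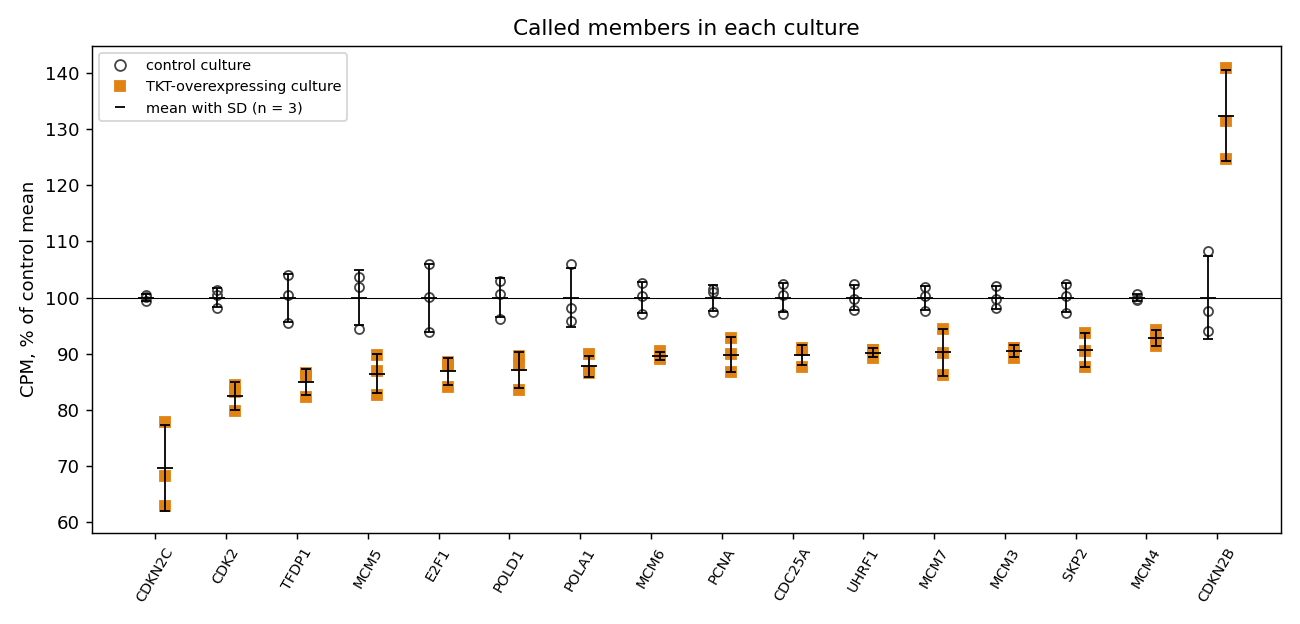
CPM in each culture as a percentage of the control mean (y axis) for the 16 called genes, ordered by fold change, with control cultures as open circles, TKT-overexpressing cultures as orange squares and the mean with SD (n = 3) as bars. The groups do not overlap in any of the 16, CDKN2C lies lowest and CDKN2B is the one gene above 100%.

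Among the 14 tested cyclin, CDK and E2F regulators, 9 had a log2 fold change below 0. Of the 14, 6 were called lower and 1 higher, against 4.94% and 5.69% of all tested genes. The 2 genes with the largest changes of the whole list were CDK inhibitors that moved in opposite directions. CDKN2C, an inhibitor of CDK4 and CDK6, had 10.6, 9.27 and 8.54 CPM with TKT and 13.7, 13.6 and 13.5 CPM in the controls, a log2 fold change of -0.52 (SE 0.11, adjusted p = 0.00379), so that it fell by 30.3%. CDKN2B (chr9:22002903-22009363, GRCh38), an inhibitor of the same kinases known as a target of TGF-beta signalling, had 26.9, 28.4 and 30.4 CPM against 21.1, 23.4 and 20.3 CPM, a rise of 32.3% (log2 fold change 0.40, SE 0.08, adjusted p = 0.00223). Each overexpressing culture lay below each control for CDKN2C and above each control for CDKN2B. With between 281 and 1000 counts per library, both were among the less abundant genes of the list, and no annotated gene overlapped the exons of CDKN2B.

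The kinase CDK2, which acts with cyclin E at the G1/S boundary, had 43.1, 43.8 and 41.3 CPM with TKT and 52.1, 50.8 and 52.5 CPM in the controls, a log2 fold change of -0.28 (SE 0.05, adjusted p = 0.00174). Its phosphatase activator CDC25A had 144, 143 and 139 CPM against 154, 159 and 162 CPM (log2 fold change -0.15, SE 0.04, adjusted p = 0.0207). SKP2, the substrate receptor of the ubiquitin ligase that degrades CDK inhibitors, had 177, 183 and 189.6 CPM against 203, 207 and 197 CPM (log2 fold change -0.14, SE 0.04, adjusted p = 0.0266). The groups did not overlap in these 3 genes. An antisense gene overlaps 14.5% of the CDK2 exon sequence, and whether the counting used strand is not given in the sources used here.

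Of the E2F pair, both partners fell. TFDP1, the common partner of E2F factors, had 149, 141 and 148 CPM with TKT and 173, 179 and 164 CPM in the controls, a log2 fold change of -0.23 (SE 0.04, adjusted p = 0.00112). E2F1 had 73.2, 77.0 and 76.6 CPM against 92.3, 81.7 and 87.1 CPM, a log2 fold change of -0.20 (SE 0.05, adjusted p = 0.0178). The groups did not overlap in either gene. E2F3 had a log2 fold change of 0.05 and was not called. E2F2 was not tested, since it had 2 counts in 1 overexpressing culture and 0 in the other 5 libraries.

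The cyclins and the cyclin D kinases were not called. CDK4, the most abundant regulator, had 219.9, 223 and 206 CPM with TKT and 241, 215 and 254 CPM in the controls (log2 fold change -0.13, adjusted p = 0.148), with overlap between the groups. This overlap came from control replicate 2, without which the adjusted p of CDK4 was 0.00353. On the opposite strand TSPAN31, with at most 466 counts, covers 43.2% of the CDK4 exon sequence. The log2 fold change of CDK6 was 0.06, and those of the cyclin E genes CCNE1 and CCNE2 were 0.03 and 0.24. CCNE2 was measured with at most 150 counts, and its 95% interval reached from -0.19 to 0.67, the widest of the list. The gene INTS8 overlaps 37.1% of its exon sequence on the opposite strand. The pocket proteins RB1 and RBL1, which hold E2F factors in check, had log2 fold changes of -0.06 and -0.21. RBL1 was lower without overlap between the groups but had an adjusted p of 0.147. The median of the 14 regulators was -0.14. Without TKT overexpression replicate 1 the number of regulators called lower was 3. The call of E2F1 was lost without that culture or control replicate 1, that of CDC25A without TKT overexpression replicate 1 or 3 or control replicate 3, and that of SKP2 without TKT overexpression replicate 1 or 2 or control replicate 1 or 2. Over all alternatives the highest adjusted p was 0.133 for E2F1, 0.103 for CDC25A and 0.164 for SKP2.

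Levels per gene length, taken from the authors' FPKM values, spanned a wide range. MCM7 stood highest at 168 ± 5.55 FPKM with TKT and 186 ± 2.55 FPKM in the controls (SD, n = 3), followed by MCM3 (132 ± 0.645 and 146 ± 3.17), PCNA (106 ± 2.30 and 118 ± 3.27), FEN1 (100.1 ± 0.817 and 105 ± 3.50) and CDK4 (69.7 ± 2.01 and 76.1 ± 5.84). Licensing genes were the most abundant of the 3 groups, with a median of 42.2 FPKM over all 6 libraries against 16.8 for fork genes and 6.25 for regulators. Among the helicase subunits the level of MCM7 was 1.27 times that of MCM3, and this ratio was 1.44 when counts were divided by the exon length of GENCODE 29. At the low end were GINS3 with 2.73 FPKM, CCNE2 with 0.799 and E2F2 with 0.0019. In order of level, 38 of the 46 genes moved by at most 2 places between these length scales and 4 moved by more than 5, among them SKP2 from place 31 to 8, so its place depends on the length used. The called genes were spread over the range, from MCM7 down to POLA1 at 2.59 ± 0.0883 and 2.95 ± 0.181 FPKM. The place of POLA1 also depends on the length used, 43 by FPKM and 37 by GENCODE exon length. On the latter scale the lowest called gene was CDKN2C at place 41.

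The fold changes were also set beside the promoter words, for genes with a window. MCM4, MCM5 and CDK2 had no window, so 12 of the 15 genes called lower entered this comparison. Of the 21 tested genes with an E2F word, 9 were called lower and none higher, and the median log2 fold change was -0.14. Of the 18 tested genes whose window held no E2F word, 3 were called lower and 1 higher, and the median was -0.06. Across all 567 tested genes with an E2F word the share called lower was 6.17% and the share called higher also 6.17%, with a median of -0.02, while without the word 5.11% of 10297 genes were lower and 6.03% higher. For the CCAAT box, 8 of 19 genes of the list with the box were called lower and 4 of 20 without it. For the E-box these counts were 2 of 7 with and 10 of 32 without. Over all tested genes the shares called lower were 6.27% with the CCAAT box and 4.52% without it, and 5.16% both with and without the E-box. Among the printed genes, picked with their calls known, MCM6 held the most E2F words and was called lower. CDKN2B held none and was called higher. POLD1, CDKN2C and SKP2 also had no E2F word and were called lower. CDC6, GINS3 and E2F3 held an E2F word and had log2 fold changes of 0.02, 0.10 and 0.05. These counts are a description of genes chosen with their fold changes known.

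Other genes of the pathway, listed by role, were described in the same way. Of 70 listed genes 69 were in the table and 67 were tested. Of these 67, 48 had a log2 fold change below 0, and the median log2 fold change was -0.10. Of the 67, 7 were called lower and 2 higher, against 4.94% and 5.69% of all tested genes (10.6% in either direction). The number called lower was 4 without TKT overexpression replicate 1 and also 4 without control replicate 1. The number called higher was 1 without TKT overexpression replicate 2, TKT overexpression replicate 3 or control replicate 2. Among the 14 further licensing and firing genes none was called by edgeR's quasi-likelihood test at an adjusted p under 0.05. At an unadjusted p under 0.05 there were 3, all lower, DESeq2 called 1 lower, and their median was -0.03. Of 21 tested further fork genes 18 had a log2 fold change below 0 and 2 were called lower. These 2 were CHTF18, a subunit of an alternative clamp loader, with a log2 fold change of -0.30 (adjusted p = 0.00856), and POLD2, the partner subunit of POLD1, with -0.15 (adjusted p = 0.0460). All 8 genes of nucleotide supply had a log2 fold change below 0, and RRM2, the S phase subunit of ribonucleotide reductase, was the one called. It had 300.3, 303 and 295 CPM with TKT and 359, 373 and 361 CPM in the controls (log2 fold change -0.28, SE 0.04, adjusted p = 1.07e-05), with no overlap.

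Of 24 tested further G1/S regulators, 14 had a log2 fold change below 0. Of the 24, 4 were called lower and 2 higher, against 4.94% and 5.69% of all tested genes. CDKN1A, the p53-induced inhibitor of cyclin-CDK complexes, had 12.5, 10.8 and 9.49 CPM with TKT and 16.2, 15.2 and 16.3 CPM in the controls (log2 fold change -0.54, SE 0.11, adjusted p = 0.00265). Cyclin D1, encoded by CCND1, which activates CDK4 and CDK6, had 423, 416 and 415 CPM against 365, 377 and 367 CPM (log2 fold change 0.18, SE 0.03, adjusted p = 0.00159). The groups did not overlap in either gene, so the cyclin of the G1 kinases and their inhibitor CDKN2B were both higher. LIN9, a subunit of the MuvB complex that represses and activates cell cycle genes, rose by 0.31 (log2, adjusted p = 0.0171). CDC25B, a phosphatase that activates CDKs, and FBXO5, an inhibitor of the anaphase-promoting complex, both had a log2 fold change of -0.20 (adjusted p = 0.0133 and 0.0185). The other gene called lower was CCNA2, cyclin A of S phase, with a log2 fold change of -0.19 (adjusted p = 0.00877), named after its values were seen.

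Genes of G2 and mitosis were used as a comparison. All 20 such genes had a log2 fold change below 0, with a median of -0.16. Of these, 11 were called lower and none higher, against 4.94% and 5.69% of all tested genes. None rose at an unadjusted p under 0.05 in edgeR or with DESeq2 either. TOP2A, the topoisomerase of chromosome condensation, had a log2 fold change of -0.25 (adjusted p = 0.00014), the kinetochore gene CENPF had -0.23 (adjusted p = 0.0113) and the mitotic cyclin gene CCNB2 also had -0.23 (adjusted p = 0.00329). The number called lower was 5 to 11 with each culture left out in turn, and it was 5 without control replicate 1 and 6 without TKT overexpression replicate 1. The difference between these genes and the replication genes was not tested.

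**Figure D4:**
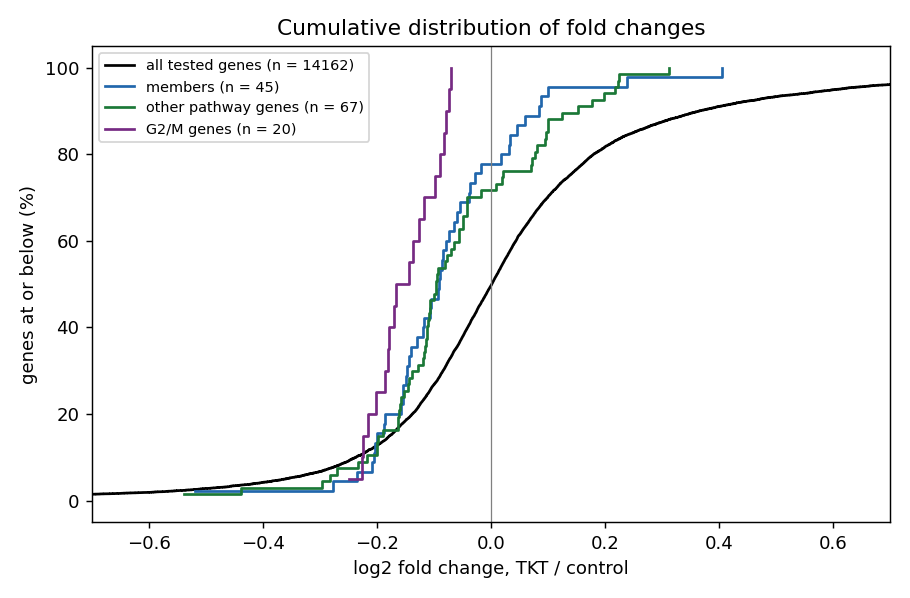
Cumulative share of genes (y axis, %) at or below each log2 fold change (x axis, TKT over control) for all 14162 tested genes (black), the 45 replication and G1/S genes (blue), 67 other pathway genes (green) and 20 G2/M genes (purple). The 3 coloured curves lie left of the black curve, with medians of -0.09, -0.10 and -0.16 against 0.00082.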

How the data were processed

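RNA-seq of 6 Huh7 cultures was analysed. The authors trimmed reads with fastp 0.22.0, aligned them with HISAT2 2.1.0 to hg38 (versions and build from the submitters' processing notes and methods) and deposited featureCounts counts and FPKM values per gene symbol. The annotation and the strand and multi-mapping options are not given in the sources used here. Deposited FPKM were the counts scaled per gene and library within 1% for 99.8% of the genes with counts in all 6 libraries.

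Counts were tested in R 4.3.3 with edgeR 4.0.16 (filterByExpr with a minimum count of 10, TMM, robust quasi-likelihood test, Benjamini-Hochberg adjustment), which gave 14162 genes and a common biological coefficient of variation of 0.113. CPM are TMM-scaled. Depth was 30148788 to 37096156 counts per library. Intervals are 95% and not adjusted for multiple testing. Members and lists were chosen with earlier results of these data known. Values in every sample are given for called members, for the largest change and the 2 most abundant members of each role. Other pathway genes are named when called, up to 3 a list and direction. Positions and overlaps are from GENCODE 29, promoters from RefSeq. The scripts were tested on simulated counts. A gene on the cell type marker list is not reported here.

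The 15 alternatives were DESeq2 1.42.0, RLE, upper-quartile or total scaling, no filter, at least 10 counts in every sample, limma 3.58.1 on log2(FPKM + 1) and log2(FPKM + 0.1), a replicate block and each culture left out.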

Additional observations from a re-analysis of the deposited data

How the results depend on the processing

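Of 240 values of the 16 called genes under 15 alternatives, 177 kept direction and call, 63 kept direction and lost the call and none reversed. The number of called members, 16, was 10 with limma on log2(FPKM + 1), and it lay between 7 and 15 with each culture left out. Of the uncalled genes CDK4 was under 0.05 in 2 alternatives and the others in none. The number of other pathway genes called, 9, became 14 with no low-count filter and 5 with limma on either FPKM scale, and lay between 6 and 11 with each culture left out. The median log2 fold change of members was -0.0792 with upper-quartile scaling and -0.0819 with limma on log2(FPKM + 1), and between -0.12 and -0.0863 with each culture left out. The level ratio of MCM7 to MCM3, 1.27 in FPKM, was 1.44 in CPM per kb of exons. The 250 bases before the start alone gave an E2F share of 42.5%, and the windows near the GENCODE start 55.9%. The causes were not tested.

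Correlations of deviations between same-numbered cultures were -0.0019, -0.025 and 0.0156. None of the 3 overexpressing cultures correlated best with the control of its own number. The labels do not say how the cultures were grown, so these values cannot settle whether they were paired. The main test used no block by number. With the replicate block 5 members and 4 other pathway genes were called. Depth limits CCNE2 and E2F2 most.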
